A study of Homo sapiens with 118 samples.

Results

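In all, 9 genes of differentiated HepaRG cells were examined for whether the concentration of a histone deacetylase inhibitor or its chemical class went with the direction in which they changed. The genes were ABCD2, ACSM3, SLC7A7, ADARB1, ABLIM1, ADAMTSL4, ADGRG2, TNFAIP8L3 and TCIM. They were chosen by their changes from the lowest to the highest concentration and their slopes on concentration. These had gone up with some inhibitors and down with others, and are given below as a description. The calls made on them below come from a test of values that chose the members. Such calls and their counts are therefore a description too, and lend the choice no support. Which of these values decided the choice is not recorded, nor whether the concentrations between were looked at, so all differences from the lowest concentration are given as a description. The 9 symbols have 12 rows among 22068 rows and 19470 symbols of the count table. Each row is a detector probe, called a feature here and written as the symbol with its probe number.

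HepaRG is an established human liver tumour line that was used after differentiation. Cells from 3 labelled batches were exposed for 72 h to 1 of 8 inhibitors at 5 concentrations, C1 to C5, with daily renewal, and lysates were profiled by TempO-Seq, a ligated-probe sequencing assay. The 118 libraries formed 40 groups, of which 38 had 3 libraries, 1 from each batch. Batch 3 was missing from panobinostat C3 and from trichostatin A C4, leaving 2 libraries in each. Apicidin, a cyclic tetrapeptide, was given from 0.041722 to 0.86 µM. The benzamides were mocetinostat, from 0.177222 to 3.9 µM, and tacedinaline, from 1.143333 to 44 µM. The hydroxamates were panobinostat, from 0.001468 to 0.084 µM, scriptaid, from 4.94 to 94.5 µM, trichostatin A, from 0.018811 to 1.5237 µM, and vorinostat, from 0.404778 to 23.5 µM. For valproic acid, a fatty acid, the dose labels run from 100.478 to 3038 µM, but smaller numbers stand in the treatment protocol under that unit, so its scale is uncertain. Scriptaid, tacedinaline and vorinostat lay on plate E and the other 5 chemicals on plate H. Solvent controls were not used here, and C1 of the same chemical was the reference throughout, so all changes of one chemical share its C1 libraries and an effect that was full at C1 would be missed. C1 to C5 are ranks, not equal doses, and the inhibitors were not compared at matched doses.

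Histone deacetylases remove acetyl groups from histones and other proteins, and their inhibitors raise the transcription of some genes and lower that of others. The products of several of the 9 genes act in the transport and activation of fatty acids and in amino acid transport. ABCD2 carries very-long-chain fatty acids into peroxisomes, and ACSM3 activates medium-chain fatty acids in mitochondria. SLC7A7 is y+LAT1, the light chain of a carrier of cationic amino acids. ADARB1, also called ADAR2, converts adenosine to inosine in double-stranded RNA. ABLIM1 binds actin, ADAMTSL4 is a secreted protein of the extracellular matrix, ADGRG2 is an adhesion G protein-coupled receptor, TNFAIP8L3 transfers phosphoinositides, and TCIM is a small regulator linked to Wnt signalling.

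The promoters of the members differ. Shown are those of ADARB1, whose curve mostly ran opposite to the others, ADGRG2, called in the most chemicals, and SLC7A7, with the highest count. They are RefSeq sequences of GRCh38.p14, from 250 bases before to 50 after the most upstream transcript start of each gene. Capitals mark the GC box, GGGCGG or CCGCCC on the printed strand, which is the motif in both orientations.
ADARB1, chr21:45074328-45074627, + strand: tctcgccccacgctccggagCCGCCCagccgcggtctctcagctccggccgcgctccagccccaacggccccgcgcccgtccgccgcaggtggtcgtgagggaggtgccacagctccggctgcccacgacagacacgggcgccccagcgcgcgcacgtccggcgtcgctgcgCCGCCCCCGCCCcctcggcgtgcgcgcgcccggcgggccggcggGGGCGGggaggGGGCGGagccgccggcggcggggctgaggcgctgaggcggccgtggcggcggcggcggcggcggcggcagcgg
ADGRG2, chrX:19122419-19122718, - strand: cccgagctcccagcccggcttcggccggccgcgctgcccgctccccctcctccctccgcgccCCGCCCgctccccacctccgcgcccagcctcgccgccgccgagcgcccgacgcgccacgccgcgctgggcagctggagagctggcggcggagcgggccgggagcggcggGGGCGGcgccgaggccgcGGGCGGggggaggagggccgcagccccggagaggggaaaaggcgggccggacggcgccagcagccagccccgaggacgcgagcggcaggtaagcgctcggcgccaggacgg
SLC7A7, chr14:22819742-22820041, - strand: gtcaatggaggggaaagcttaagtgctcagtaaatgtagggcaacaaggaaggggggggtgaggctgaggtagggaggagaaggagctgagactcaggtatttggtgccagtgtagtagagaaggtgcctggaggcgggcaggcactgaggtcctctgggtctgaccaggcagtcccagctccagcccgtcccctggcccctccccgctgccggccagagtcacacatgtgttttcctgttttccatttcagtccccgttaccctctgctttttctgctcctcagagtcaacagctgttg
The ADARB1 window held 5 GC boxes and 56 CG dinucleotides, and the ADGRG2 window 3 and 50. The SLC7A7 window held no GC box and 5 CG dinucleotides. Among 35116 promoter windows of the same length, 45.0% held a GC box and the median number of CG dinucleotides was 14. Of the 7 member genes with an entry, 5 had a GC box and 2, SLC7A7 and TNFAIP8L3, had none. The CG numbers thus ran from 1 in TNFAIP8L3 to 56 in ADARB1, and the members share no such promoter type. ACSM3 and TCIM had no entry.

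Total counts per library ranged from 1061359 to 5250260 with a median of 3702007, and the mean of vorinostat was 3038905 at C1 and 1485592 at C5. All 30 features of a list of 26 hepatocyte genes had a median of at least 1 CPM (counts scaled to library size) at C1, with 6 of 11 biliary and progenitor features and 8 of 12 stromal features. Of the biliary markers, EPCAM, CFTR and AQP1 had a median of 0 CPM at C1. In 6 libraries the correlation with the libraries of the same group averaged under 0.9, with 0.816 as the lowest value, against a median of 0.954 over all libraries. They were batch 3 of scriptaid C4, mocetinostat C2, trichostatin A C1 and valproic acid C4, and batch 1 of mocetinostat C3 and apicidin C4. An alternative without them was added after the values were seen. In it 0 of 75 member values called at C5 or by the slope on concentration lost their call, and 7 others gained one. Changes at C2 to C4 were not in this count.

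A feature was called higher or lower when the edgeR quasi-likelihood test gave a Benjamini-Hochberg adjusted p under 0.05 and the fold was at least 1.5. Of 12 member features, 11 passed the filter on low counts in all 8 chemicals. The other, ADAMTSL4_26800, had a median of 2 counts, was tested in tacedinaline only and was not called there. Of the whole table, 1.31% of features tested were called higher at C5 in at least 1 chemical and lower in at least 1, which was 184 of 14087. The members made up 10 of these features and the exception among the 11 was SLC7A7_91117, which was lower in 3 chemicals and higher in none. The 10 became 4 without batch 1, 6 without batch 2 and 5 without batch 3. By the slope on log2 concentration, called the trend, the share was 1.54%, or 217 features, with 9 member features among them. At least 3 chemicals in each direction at C5 were reached by 3 features of the table, ADGRG2_21222, SLC7A7_91364 and TNC_14940, the last being tenascin C, an extracellular matrix protein named after its values were seen.

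The direction at C5 differed between chemicals. Panobinostat had 8 member features called higher and 0 lower, where 6.77% and 9.46% of all features tested were called higher and lower. Valproic acid had 4 higher and 2 lower, with 4.84% and 6.22% over the table. Apicidin had 3 and 1, with 13.8% and 15%. The balance was the reverse in the benzamides. Mocetinostat had 2 higher and 8 lower, with 14.8% and 15.7% over the table, and tacedinaline 1 and 7, with 18.7% and 20.1%. Vorinostat had 0 higher and 4 lower, with 22.7% and 24.9%, and scriptaid 0 and 3, with 12.8% and 17%. No member was called in trichostatin A, where 0% of all features were higher and 0.0154% lower. The 2 features called higher in mocetinostat and the 1 in tacedinaline were probes of ADARB1. These shares come from the comparison that chose the members and nothing is read from them.

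**Figure D1:**
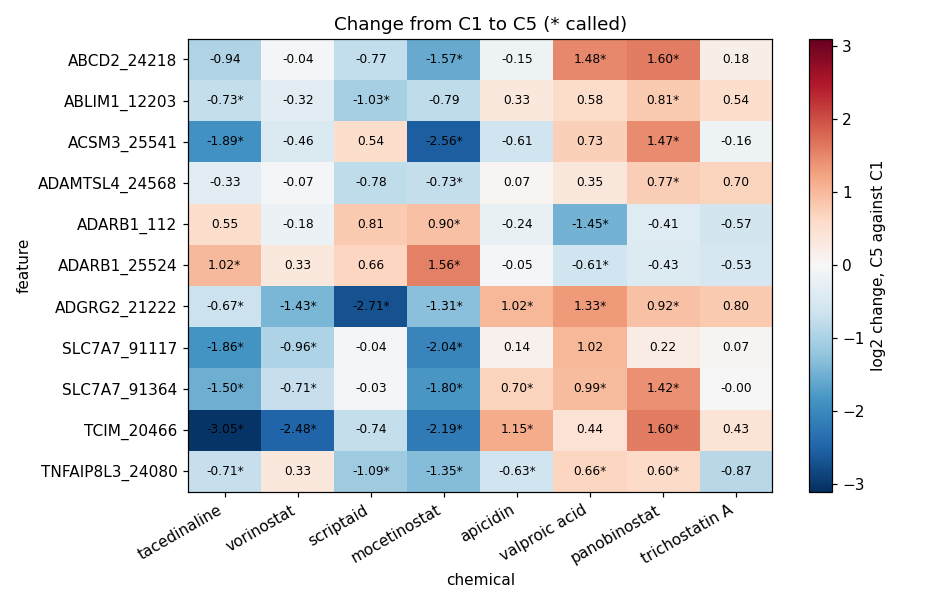
Log2 change from C1 to C5 of 11 member features (rows) in 8 chemicals (columns), from the edgeR fit, with chemicals ordered by the fall of the hepatocyte list at C5. Red is higher, blue is lower, and an asterisk marks a called change; panobinostat has 8 red called cells, mocetinostat 8 blue called cells.

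Among the 4 hydroxamates at C5, members were called higher only in panobinostat, lower only in vorinostat and scriptaid, and not at all in trichostatin A. The 2 benzamides had the same sign at C5 in 11 of 11 features. Over the whole table, 0 of 3089 features called in both benzamides had opposite directions. Panobinostat and valproic acid, of different classes, likewise had 0 of 1012. The agreement thus sets neither the members nor the benzamides apart. Counting C2 to C5 against C1 over all chemicals and features, members were called 0 times at C2 in either direction, where 0.0659% of all feature and chemical pairs were higher and 0.0206% lower. At C3 they were called higher 11 times and lower 3 times (2.82% and 3.16% of all pairs), at C4 15 and 12 times (7.85% and 8.14%) and at C5 18 and 25 times (11.6% and 13.4%). In 4 cases the same feature was called higher at one concentration and lower at another of the same chemical. They were SLC7A7_91364 in tacedinaline, where 0.128% of features did so, and SLC7A7_91364, SLC7A7_91117 and TCIM_20466 in vorinostat, where 0.241% did so.

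**Figure D2:**
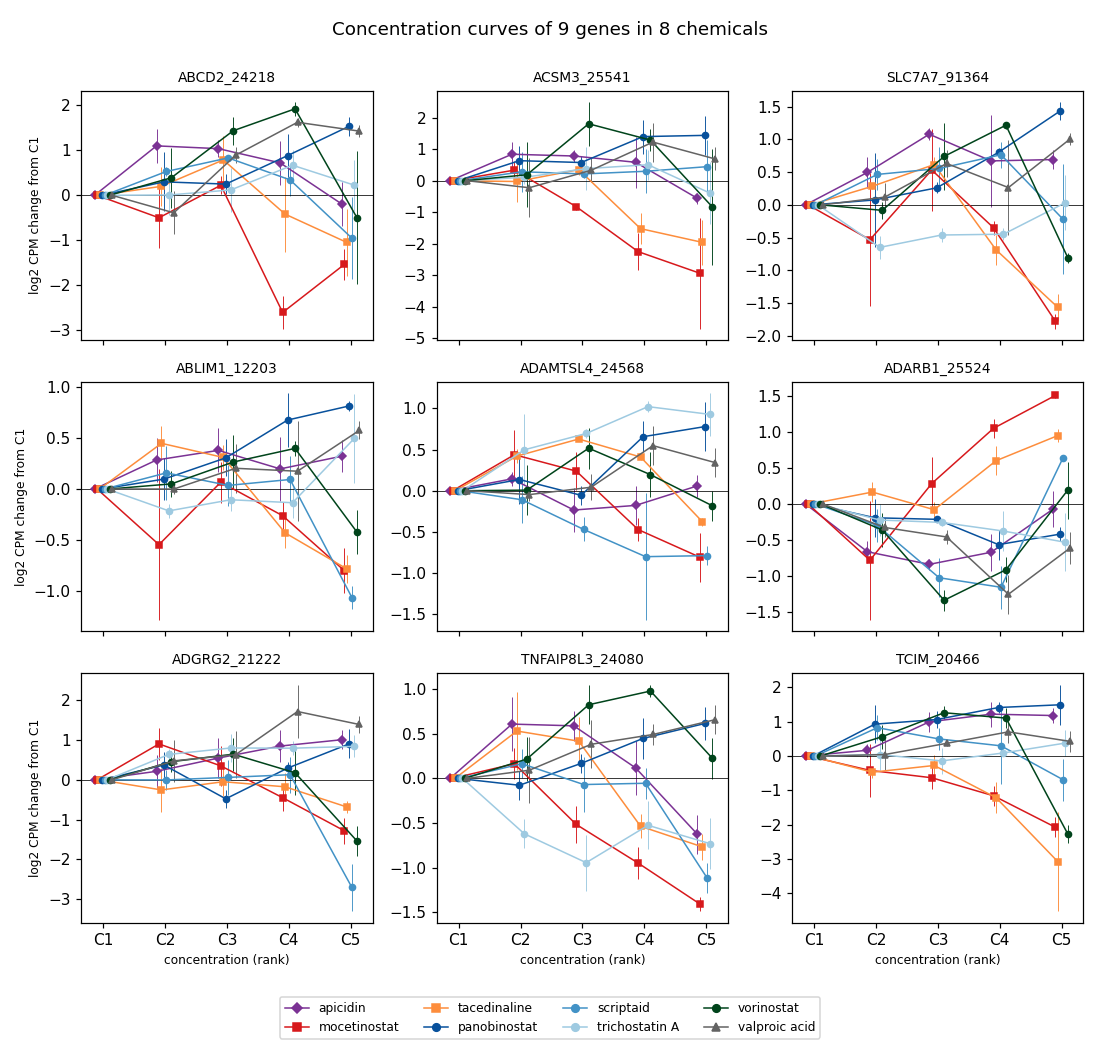
Change in mean log2 CPM from C1 (vertical axis) at each concentration rank (horizontal axis) for 1 feature of each of the 9 genes, 1 line per chemical. Error bars at C2 to C5 are the SD of the libraries at that concentration. At C1 the bar is set to 0, so the spread of the C1 libraries is not shown. In vorinostat (dark green) SLC7A7, ABCD2 and TCIM lie above 0 at C3 and C4 and drop at C5, and ADARB1 runs the other way.

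In vorinostat the genes of fatty acid handling went up at C3 and C4 and came back to overlap with C1 at C5, where neither was called. ABCD2_24218 had 7.75, 7.03 and 7.78 CPM in the vorinostat C1 libraries of batches 1, 2 and 3. At C4 it had 28.1, 28.5 and 34.2 CPM. At C5 it had 10.6, 9.03 and 1.17 CPM. The C4 libraries thus all lay above both C1 and C5, and C1 and C5 overlapped. The log2 change from C1 was 2.05 ± 0.42 (SE) at C4 and -0.04 ± 0.49 at C5. In panobinostat ABCD2 had 7.59, 4.91 and 5.65 CPM at C1 and 17.3, 21.9 and 16.5 CPM at C5, so that all C5 libraries were above all C1 libraries (log2 change 1.60 ± 0.39). In valproic acid the C5 change was 1.48 ± 0.33. In mocetinostat ABCD2 had 12.3, 10.9 and 12.4 CPM at C1 and 3.65, 2.84 and 4.89 CPM at C5, with no overlap in the downward direction (log2 change -1.57 ± 0.45). Its lowest levels there were at C4, with 1.31, 2.12 and 1.09 CPM.

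ACSM3_25541 followed a like course at low counts, with a median of 43 counts per library. In vorinostat it had 7.75, 3.26 and 15.2 CPM at C1, 23.1, 47.4 and 18.5 CPM at C3 and 13.9, 4.76 and 0.585 CPM at C5. The C3 libraries lay above all those of C1 and C5, and those of C1 and C5 overlapped. In mocetinostat it went from 12.9, 17.5 and 20.8 CPM at C1 to 0, 5.42 and 2.75 CPM at C5, a log2 change of -2.56 ± 0.68. In tacedinaline the change at C5 was -1.89 ± 0.45. In panobinostat ACSM3 had 4.55, 11.7 and 5.65 CPM at C1 and 15.9, 31.98 and 14.0 CPM at C5, all above C1 (log2 change 1.47 ± 0.42). In scriptaid the C5 libraries had 10.6, 8.52 and 27.1 CPM and overlapped with C1.

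SLC7A7_91364, the probe of the amino acid carrier with the most counts, went up and then below its C1 level in vorinostat and tacedinaline. In vorinostat it had 395, 348 and 340 CPM at C1, 834, 809 and 874 CPM at C4 and 195, 206 and 216 CPM at C5. No library of one of these groups overlapped with another. The log2 changes from C1 were 0.83 ± 0.16 at C3, 1.26 ± 0.16 at C4 and -0.71 ± 0.17 at C5, all called. In tacedinaline it had 537, 546 and 582 CPM at C1, 926, 804 and 826 CPM at C3, 357, 290 and 393 CPM at C4 and 183, 217 and 162 CPM at C5. The reversal thus came between C3 and C4 there, with log2 changes from C1 of 0.63 ± 0.13, -0.65 ± 0.13 and -1.50 ± 0.13. In panobinostat the level only went up, from 345, 446 and 401 CPM at C1 to 961, 1120 and 1142 CPM at C5 (log2 change 1.42 ± 0.22). In apicidin it was highest at C3, with 1119, 1242 and 1259 CPM, and at C5 had 849, 897 and 1025 CPM, still above the 511, 668 and 542 CPM of C1. The second probe, SLC7A7_91117, also was called higher at vorinostat C4 (0.91 ± 0.32) and lower at C5 (-0.96 ± 0.38). In panobinostat the 2 probes differed at C5, with 0.22 ± 0.34 for SLC7A7_91117, which was not called.

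Both probes of ADARB1 mostly ran in the opposite direction to the other members, though not everywhere. Their Pearson r with other members over the changes from C1 ran from -0.842 (ADARB1_25524 with ACSM3) to -0.068 (ADARB1_112 with ADAMTSL4_24568). At apicidin C5 both probes lay below C1, as did ABCD2, ACSM3 and TNFAIP8L3. ADARB1_25524 had 95.7, 104 and 95.5 CPM at vorinostat C1, 38.9, 34.9 and 43.0 CPM at C3 and 91.6, 101 and 154 CPM at C5. The C3 libraries lay below all those of C1 and C5. In scriptaid it had 73.8, 108 and 103 CPM at C1, 34.0, 41.6 and 51.9 CPM at C4 and 143, 148 and 145 CPM at C5, so that C4 was below and C5 above all C1 libraries. In the benzamides the C5 levels were above C1 without overlap, at 207, 200.95 and 209 CPM against 82.7, 79.0 and 57.8 CPM in mocetinostat and at 123, 135 and 121 CPM against 73.3, 69.3 and 54.6 CPM in tacedinaline. The log2 changes were 1.56 ± 0.31 and 1.02 ± 0.18. In valproic acid ADARB1_25524 had 110, 89.4 and 103 CPM at C1 and 51.2, 41.2 and 35.2 CPM at C4, and the C5 libraries at 72.4, 54.9 and 71.7 CPM also lay below C1 (log2 change -0.61 ± 0.18). The probe ADARB1_112 was called higher in mocetinostat (0.90 ± 0.27) and lower in valproic acid (-1.45 ± 0.31). Over the 32 changes from C1, in 8 chemicals and 4 concentrations, the 2 probes had a Pearson r of 0.814, which is a description because the 4 changes of a chemical share its C1 libraries.

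Of the actin and matrix genes, ABLIM1_12203 had 189, 197 and 187 CPM at panobinostat C1 and 348, 325.8 and 338 CPM at C5 (log2 change 0.81 ± 0.16). In scriptaid it stayed near its C1 level of 235, 304 and 271 CPM through C4, at 239, 321 and 306 CPM, and had 139, 118 and 127 CPM at C5 (log2 change -1.03 ± 0.23). The C5 libraries of scriptaid lay below every C1 and C4 library. In tacedinaline the C5 change was -0.73 ± 0.15. ADAMTSL4_24568 peaked in the middle of the tacedinaline range, at 271, 264 and 271 CPM at C3 against 158, 185 and 178 CPM at C1 and 131, 131 and 139 CPM at C5. All C5 libraries were below all C1 libraries, with a log2 change of -0.33 ± 0.14 that was not called. Its called changes at C5 were 0.77 ± 0.20 in panobinostat and -0.73 ± 0.22 in mocetinostat.

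ADGRG2_21222, the receptor, was called in 7 of 8 chemicals at C5, higher in 3 and lower in 4. In scriptaid it had 81.1, 95.2 and 181 CPM at C1, 105, 98.9 and 176 CPM at C4 and 10.2, 19.3 and 23.2 CPM at C5. The C4 libraries overlapped with those of C1 and all of C5 lay below, with a log2 change from C1 of -2.71 ± 0.39. In vorinostat the C5 libraries had 25.4, 39.0 and 24.0 CPM against 88.6, 63.3 and 108 CPM at C1 (-1.43 ± 0.27). In panobinostat C5 had 104, 140 and 173 CPM against 68.3, 63.8 and 87.2 CPM at C1 (0.92 ± 0.22). Valproic acid (1.33 ± 0.35) and apicidin (1.02 ± 0.26) were also called higher. Batch 3 was the highest C1 library of ADGRG2 in mocetinostat, scriptaid, valproic acid, apicidin, panobinostat and vorinostat.

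TNFAIP8L3_24080 had the smallest called change at C5 of any member, 0.60 ± 0.17 in panobinostat, where it had 128, 151 and 129 CPM at C1 and 236, 209 and 183 CPM at C5. In vorinostat it had 131, 143 and 122 CPM at C1, 272, 246 and 261 CPM at C4 and 180, 155 and 131 CPM at C5. The C4 libraries lay above the others, and C5 overlapped with C1. In mocetinostat it had 216, 262 and 191 CPM at C1 and 88.3, 79.2 and 81.7 CPM at C5 (-1.35 ± 0.20), and it was below C1 already at C3 with 131, 168 and 167 CPM. In apicidin it was highest at C2 and C3, and lower than C1 at C5, with 144, 155 and 115 CPM against 191, 264 and 189 CPM (-0.63 ± 0.19).

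TCIM_20466, the Wnt-linked regulator, was called higher with panobinostat and apicidin at C5 and lower with mocetinostat, tacedinaline and vorinostat. In vorinostat it had 9.96, 9.79 and 9.34 CPM at C1, 25.3, 20.7 and 26.5 CPM at C3 and 1.64, 1.90 and 1.17 CPM at C5. The C5 values rest on 2, 4 and 2 counts, and the log2 change of -2.48 ± 0.51 at C5 depends on such counts. In panobinostat it went from 9.32, 11.7 and 11.3 CPM at C1 to 19.5, 43.3 and 36.0 CPM at C5 (1.60 ± 0.33), and in apicidin from 18.7, 29.1 and 13.2 CPM to 42.3, 52.6 and 39.7 CPM (1.15 ± 0.28). In both, all C5 libraries lay above all C1 libraries. In tacedinaline TCIM had 15.8, 13.9 and 15.2 CPM at C1, 5.56, 4.59 and 8.89 CPM at C4 and 2.50, 0 and 2.89 CPM at C5, the last from 5, 0 and 7 counts (-3.05 ± 0.60). In mocetinostat it had 28.6, 13.8 and 34.8 CPM at C1 and 6.78, 4.64 and 4.59 CPM at C5 (-2.19 ± 0.46). In the benzamides the mean log2 change from C1 was below 0 at C2 to C5. Without the libraries that stood apart, mocetinostat C2 lay at 0.02 and the other benzamide groups stayed below 0.

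**Figure D3:**
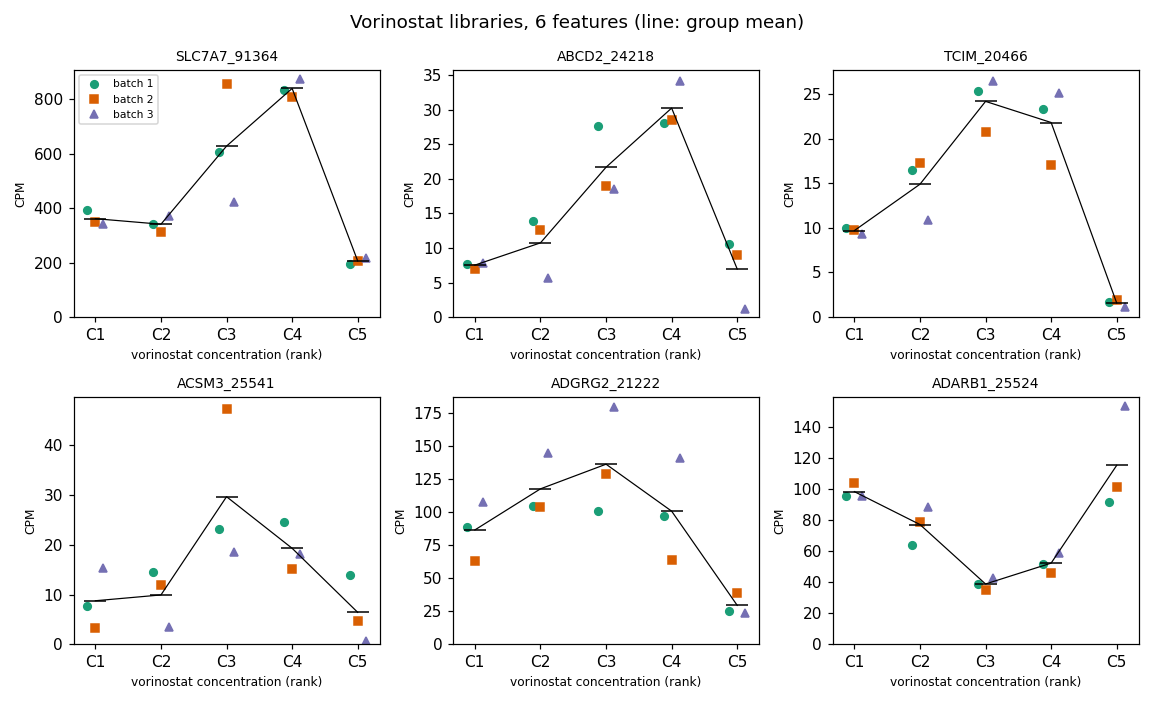
CPM of 6 member features in each vorinostat library (vertical axis, from 0) at C1 to C5 (horizontal axis), with 1 symbol per batch and a line through the group means. The C5 libraries drop below the C4 libraries in SLC7A7, ABCD2, TCIM, ACSM3 and ADGRG2, whereas ADARB1 is lowest at C3.

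The shape of the curves was set apart from the slope and from the difference of C5 and C1, the values taken to have chosen the members. The shape was tested with 2 contrasts over the 5 groups that hold neither of these 2 measures. The edgeR quasi-likelihood F test was used, Benjamini-Hochberg adjusted over all features of a chemical. The contrasts use the same C1 and C5 libraries, so the counts may not be independent of those 2 measures. Whether the concentrations between entered the choice is unknown, so the counts may not be independent of the choice either. In vorinostat 11 of 11 member features were called, where 17.2% of all features were. In tacedinaline 7 of 12 were called, where 8.28% were, and in mocetinostat 5 of 11, where 2.9% were. In apicidin 2 of 11 were called against 0.425%, and in scriptaid 2 of 11 against 5.83%. No member was called in panobinostat, where 0.893% were, in valproic acid, where 0.37% were, or in trichostatin A, where 0% were. At an unadjusted p under 0.05 those 3 chemicals had 1, 0 and 2 of 11 member features. Over the table, 1231 of 13104, 1169 of 12982 and 846 of 12993 features had such a p in this test. DESeq2 called 1, 0 and 0 member features in them, where 2.07%, 0.909% and 0% of all features were called. Of 27 member and chemical pairs called, the smallest adjusted p-values were 1.53e-13 for SLC7A7_91364 in tacedinaline, 4.01e-07 for it in vorinostat, 1.36e-06 for ADARB1_25524 and 2e-06 for TCIM_20466 in vorinostat. In tacedinaline ADAMTSL4_24568 (2.72e-06), ABLIM1_12203 (7.11e-06) and TNFAIP8L3_24080 (1.3e-05) followed. ACSM3_25541 was called in vorinostat (0.0104) and tacedinaline (0.00581), ABCD2_24218 in vorinostat (0.00678), mocetinostat (0.00637) and apicidin (0.0476), and ADGRG2_21222 in vorinostat (1.02e-05), scriptaid (0.0153) and mocetinostat (0.0208).

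The shape counts depended on single batches. The 27 pairs became 13 without batch 1, 10 without batch 2 and 28 without batch 3. In vorinostat they became 6, 5 and 10, with 8.43%, 10.0% and 12.5% of all features called. In tacedinaline they became 6, 5 and 7, with 4.96%, 3.85% and 5.88% of all features called. In mocetinostat they became 0, 0 and 5, with 0.373%, 0.0986% and 20.0%. Apicidin had 1 without batch 1, and 0 without batch 2 or batch 3, with 0.409%, 0% and 0.0852% of all features called. Scriptaid had 0, 0 and 6, with 0.371%, 0% and 14.0%. The shares over the table thus also changed with the batch left out. Without the 6 libraries that stood apart the pairs numbered 36, including all 27, with 7 in scriptaid against 18.0% of its features and 7 in mocetinostat against 33.2%.

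Of the 27 called shapes, 22 went up from C1 to C3 and down from C3 to C5, and 4, all of ADARB1, went down and then up. The remaining 1, of ADARB1_25524 in mocetinostat, went up in both steps. From C1 to C3 to C5 the mean log2 CPM went up and then down in 9 of 11 features in vorinostat, 7 in tacedinaline and 6 each in apicidin, mocetinostat and scriptaid, called or not. It did so in 0 of 11 in panobinostat and valproic acid and in 2 in trichostatin A. Over the whole table, 24.7% of features did so in vorinostat, 22.7% in tacedinaline, 21.9% in apicidin, 23.1% in mocetinostat and 27.5% in scriptaid. The shares were 34.9% in trichostatin A, 26.2% in panobinostat and 25.1% in valproic acid. The 2 vorinostat exceptions were the ADARB1 probes, which went down and then up. The steps from C1 to C3 and from C3 to C5 add up to the change from C1 to C5. That change is taken to have chosen the members, so the counts of these forms are a description. Nothing is read from them beside the shares of the whole table.

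The size of the cells' response was read from the hepatocyte list, as the mean log2 CPM of its features minus that at C1. At C5 this difference was -4.52 in tacedinaline, -4.30 in vorinostat, -4.14 in scriptaid, -3.99 in mocetinostat and -3.08 in apicidin, and -2.22 in valproic acid and -1.73 in panobinostat. In bulk lysates fewer hepatocyte-like cells and less of these RNAs per cell cannot be told apart. In single libraries the mean of the list ran from 5.54 to 9.24 at C1 and from 3.74 to 8.29 at C5. The 5.54 and the 8.29 were both of trichostatin A. In the other chemicals the lowest C1 library had 8.24 and the highest C5 library 7.11. The biliary list ran from 1.12 to 1.89 at C1 and from 1.09 to 2.15 at C5. The stromal list ran from 2.54 to 3.38 and from 1.82 to 2.72. The part of these changes in the members' directions was not tested. Trichostatin A, in which 1 of 3 C1 libraries stood apart, was left out of the division by this difference.

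The members' changes were set beside the size of this fall as a description, since they were chosen on such changes. When the 28 groups of C2 to C5 in 7 chemicals were divided at a fall of 3, chosen after the values were seen, 21 groups had the smaller fall and 7 the larger. The 7 were C5 of tacedinaline, vorinostat, scriptaid, mocetinostat and apicidin and C4 of tacedinaline and mocetinostat, with vorinostat C4 next at -2.97. ABCD2 lay above C1 in 19 of 21 groups with the smaller fall and in 0 of 7 with the larger, with median log2 changes of 0.79 and -0.96. SLC7A7_91364 lay above in 19 and 1, with medians of 0.56 and -0.69, and ABLIM1 in 19 and 1, with 0.20 and -0.43. ACSM3 lay above in 18 and 1, and TCIM, ADGRG2 and TNFAIP8L3 in 17 and 1 each. SLC7A7_91117 lay above in 17 and 2, and ADAMTSL4_24568 in 14 and 2. The ADARB1 probes were the reverse, with ADARB1_25524 above C1 in 2 of 21 and 6 of 7 groups (medians -0.56 and 0.63) and ADARB1_112 in 1 and 5. Without the libraries that stood apart the counts were the same for 7 of 11 features, and ADGRG2 had 16, SLC7A7_91117 18, TCIM 18 and TNFAIP8L3 18 in the smaller-fall groups.

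**Figure D4:**
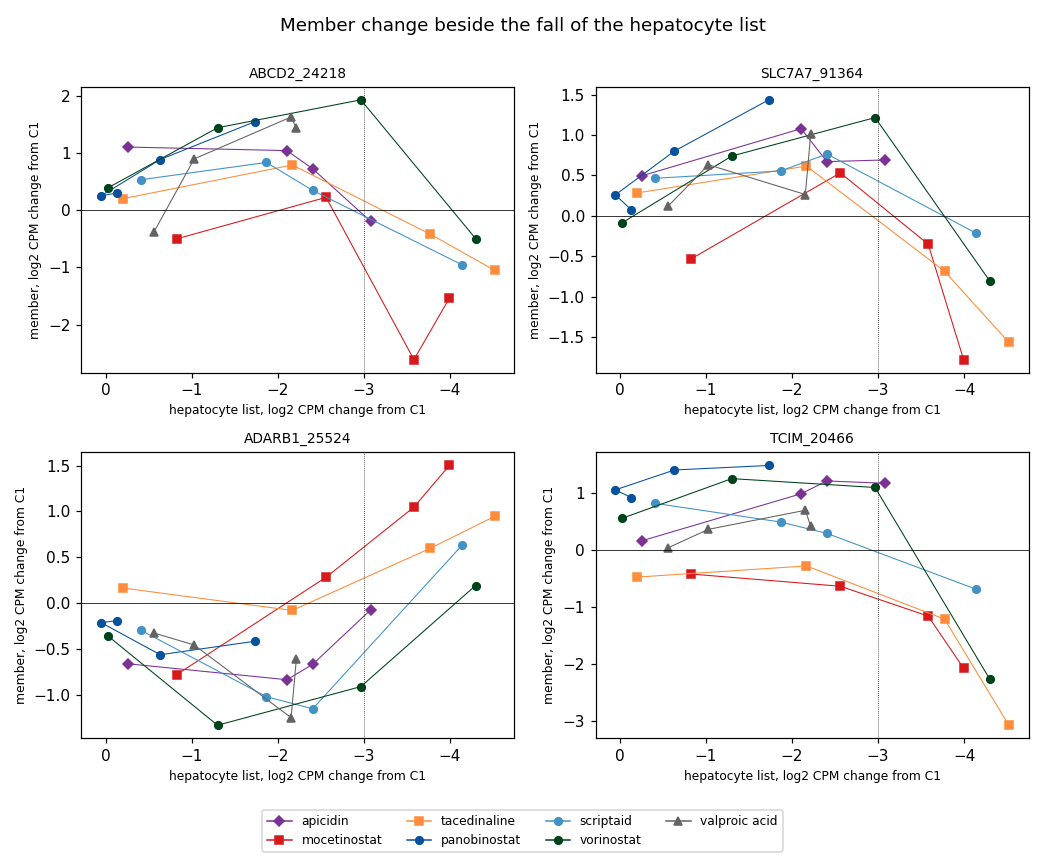
Change of 4 member features from C1 (vertical axis, mean log2 CPM) against the change of the hepatocyte list from C1 (horizontal axis, falls growing to the right), 1 point per group of C2 to C5 and 1 line per chemical in order of concentration. Left of the dotted line at a fall of 3, ABCD2 and SLC7A7 lie mostly above 0 and to its right mostly below, ADARB1 is the reverse, and with all libraries the benzamide points of TCIM lie below 0.

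By class, the same tallies are again a description. Among groups with the smaller fall, TCIM lay above C1 in 10 of 10 hydroxamate groups, 3 of 3 apicidin groups and 4 of 4 valproic acid groups but in 0 of 4 benzamide groups, whose changes ran from -0.63 to -0.28. Without the libraries that stood apart the benzamide count was 1 of 4, with changes from -0.58 to 0.02, and the other 3 counts did not change. Among groups with the larger fall, apicidin C5 was the one above C1, at 1.18. For ABCD2 the hydroxamates were above in 10 of 10 groups with the smaller fall and 0 of 2 with the larger, and the benzamides in 3 of 4 and 0 of 4. For SLC7A7_91364 these counts were 9 of 10 and 0 of 2 for hydroxamates and 3 of 4 and 0 of 4 for benzamides. Apicidin C5 lay above C1 for both SLC7A7 probes, ABLIM1, ADAMTSL4_24568, ADGRG2 and TCIM and below it for ABCD2, ACSM3, TNFAIP8L3 and both ADARB1 probes. The groups of one chemical share C1 libraries, and no test was made over them. All 3 chemicals of plate E and, of plate H, mocetinostat and apicidin reached the larger fall, so plate and size of response were partly joined. C4 and C5 of both benzamides had the larger fall, and no group of panobinostat or valproic acid did. Class and size of response were thus also partly joined, and the division cannot tell them apart.

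Relatives of the members were examined by trend. Of 39 genes of the same families or complexes, 43 features were in the table and 28 were tested. By trend 16 were called in at least 1 chemical, 3 higher only and 13 lower only, and 0 in both directions. Of all features tested 1.54% were called in both, so that 0 of 28 does not set the relatives apart. Calls by trend were common, with 43.6% of all features tested called in at least 2 chemicals. By chemical, the shares higher and lower ran from 0.0154% and 0.0462% in trichostatin A to 24.4% and 23.0% in vorinostat. Features called in at least 1 chemical, or in 1 direction only, were not counted over all features. Whether 16 called, or 13 lower against 3 higher, sets the relatives apart was thus not tested. The mitochondrial ligases ACSM2A and ACSM2B, near-identical copies whose counts are uncertain, were lower in 7 chemicals each, with the largest fitted changes at -8.86 in mocetinostat and -7.65 in tacedinaline. Of the amino acid carriers, SLC7A8 had 3.20 in tacedinaline, the 1 chemical in which it was tested, and SLC7A9 had -2.68 in scriptaid. SLC3A2, the heavy chain that pairs with SLC7A7 and is named for that reason after its values were seen, was lower in 3 chemicals, with -1.66 in mocetinostat. ABCD3, a peroxisomal transporter, had 1.12 in vorinostat, and ABCD4, a lysosomal protein of cobalamin transport, had -1.72 in scriptaid. ADGRG6, an adhesion receptor, was lower in 6 chemicals, with -1.98 in mocetinostat. ABLIM3, an actin-binding relative of ABLIM1, had -2.34 in mocetinostat. ADAMTSL5_88206 had 1.31 in tacedinaline and THSD4 -0.98 in vorinostat. Both TNFAIP8 probes were lower in mocetinostat, with -1.05 and -0.82. ADAR, the relative of ADARB1 that was tested, was not called.

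The features with curves most like those of the members were ranked by Pearson r over the 32 changes from C1, among 11288 features that passed the filter in all chemicals. The changes of a chemical share its C1 libraries, so the points are not independent. For SLC7A7_91364 they were HSPB8 (0.921), PRCP (0.881) and KLRC2 (0.863), and for ABLIM1 INPP4B (0.911), MBNL1 (0.884) and HSPB8 (0.874). For ACSM3 they were RACK1 (0.895), GPAM (0.887) and TBXAS1 (0.861), and for ABCD2 KIAA0040 (0.861), ACSM3 (0.845) and PPP1R13L (0.842). TCIM had CD63 (0.878), UGT2B28 (0.874) and HSPB8 (0.873). ADARB1_25524 had MAPK8 (0.869), C16orf70 (0.868) and ZCCHC14 (0.861). ADGRG2 had ITGA3 (0.865), NFE2L1 (0.855) and PHC2 (0.847), TNFAIP8L3 had KIAA0040 (0.860), IL1RL1 (0.844) and TPD52L1 (0.837), and ADAMTSL4 had CCDC84 (0.842), CHRD (0.808) and PLSCR4 (0.789). HSPB8 thus stood among the 3 closest of SLC7A7, ABLIM1 and TCIM, and KIAA0040 among those of ABCD2 and TNFAIP8L3. Between members, ACSM3 and ADARB1_25524 had the most negative r, at -0.842.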

How the data were processed

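TempO-Seq counts of 118 libraries were used. What the authors deposited are unnormalised read counts for each probe. The submitters' processing notes name bcl2fastq 2.20.422, fastp 0.23.2, STAR 2.7.10b and DESeq2 1.38.0. The genome build and the probe annotation are not given in the sources used here. The paper linked to the series reports a different experiment and served for style only. The last row, a probe for SEC13, lacked 88 values and was left out.

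Each chemical was fitted alone in R 4.3.3 with edgeR 4.0.16 on all features that passed filterByExpr, with TMM scaling, quasi-likelihood F tests and Benjamini-Hochberg adjustment. Calls needed an adjusted p under 0.05 and, except for the shape test, a fold of at least 1.5. A standard error is the size of the log2 change over the root of its F value. CPM used TMM factors over all libraries, with a prior count of 2 for log2 values. Groups with at most 3 counts in every library count as at the floor. Counting limits cover counting error only, since reads lack molecular identifiers. Replicate numbers are the labelled HepaRG batches. Deviations from group means correlated at a median of 0.0326 in 232 same-batch pairs and -0.0115 in 464 other pairs. Whether batches are separate cultures is known from labels only. Scripts were tested on simulated data. Alternatives were DESeq2 1.42.0, RLE factors, library totals, no filter, a fold of 2, the batch as a block and leaving out each replicate or the libraries that stood apart.

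The members and gene lists were chosen with earlier results of these data known. Named genes were the members, the 3 features most like each in r, and the 2 relatives per family with the largest called trend. A further relative that this rule names is not reported here.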

Additional observations from a re-analysis of the deposited data

Results flagged for a closer look

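For 11 member features, there were pairs of chemicals in which all 3 batches moved in opposite directions from C1 to C5. These differences between chemicals were not tested. ADGRG2_21222 had 16 such pairs, higher with apicidin, panobinostat, trichostatin A and valproic acid and lower with mocetinostat, scriptaid, tacedinaline and vorinostat. TNFAIP8L3_24080 had 15, ABLIM1_12203 and TCIM_20466 12 each, and SLC7A7_91364 9. ADARB1_112 had 8 and ADARB1_25524 6, as did ADAMTSL4_24568. ABCD2_24218 had 4, ACSM3_25541 3 and SLC7A7_91117 2. The members were chosen for this kind of difference.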

How the results depend on the processing

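Opposite calls at C5 (10 member features) fell to between 4 and 6 when 1 batch was left out, and to 5 with a fold of 2. Opposite calls by trend (9) stayed between 6 and 9 without 1 batch and became 4 with a fold of 2. Called shapes (27 pairs) ranged from 10 to 28 without 1 batch. With the replicate block the counts were 8 by trend, 10 at C5 and 27 for shape, and 1 of 75 called member values lost its call. Without the libraries that stood apart they were 10, 11 and 36. With DESeq2 they were 11, 11 and 37. Of the 75 called values, library totals alone lost 9, no filter 2, and leaving out replicate 1, 2 or 3 lost 18, 25 and 26. The 75 are the values called at C5 and by trend. No member value at C5 or by trend was reversed under these settings, and changes at C2 to C4 were not in this check. The cause of the losses was not tested, though each such fit holds fewer libraries. Depth limited TCIM and ACSM3, whose lowest libraries had 0 counts, and ADAMTSL4_26800.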
